A study of Mus musculus with 90 samples.

Results

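Livers that lack the glucocorticoid receptor (GR) in hepatocytes were compared with control livers at zeitgeber time 16 (ZT16) in mice on caloric restriction. The comparison was chosen by the sample titles and holds 6 of the 90 liver libraries of the series, 3 GRLKO and 3 WT, each from a single mouse. These 6 belong to a time series of 36 livers on caloric restriction, collected at 6 times 4 h apart. Poly-A RNA of whole liver was sequenced, so that every cell of the organ contributed. WT mice carried the floxed receptor gene alone (GRfl/fl), and GRLKO mice carried it together with Cre recombinase under the albumin promoter (GRfl/fl x Alb-Cre). All were C57BL/6J males, 12 weeks old when an 8-week feeding protocol began, and their food was lowered in steps to 40% fewer calories and given at ZT12. ZT16 was therefore 4 h after the meal. The albumin promoter acts in hepatocytes, so that the other liver cells should keep GR, and reads from receptor exons outside the deleted stretch can still count. The part of either in the Nr3c1 counts was not tested. At points the comparison is set beside 3 GRLKO and 3 WT livers of the same series at ZT12, before food. It is also set beside 3 GRLKO and 4 WT livers collected at ZT16 on the control diet. Mice of the same genotypes on that diet ate freely, with food limited to the night in the final week.

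GR is a nuclear receptor that rests in the cytoplasm until it binds corticosterone, then enters the nucleus and raises or lowers the transcription of genes near its binding sites. In liver it is known for driving glucose production, amino acid breakdown and the response to fasting, together with other factors such as C/EBP proteins, STAT5 and PPARalpha. Corticosterone in mice peaks around the onset of the dark phase, and food restriction raises that peak.

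Nr3c1, the gene that encodes GR, stood at 77.4, 94.4 and 95.3 CPM (counts scaled to a common library size) in the WT livers and at 23.2, 25.9 and 25.4 CPM in the GRLKO livers. Every GRLKO liver was below every WT liver, and the GRLKO values lay close together. Nr3c1 fell 3.59-fold (log2 fold change -1.84 ± 0.11, adjusted p = 0.000366). The error is the standard error of the fit with 3 mice per genotype, and adjusted p-values come from edgeR over all genes tested. In bulk liver, fewer cells of a type and less RNA per cell cannot be told apart.

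The libraries held 19135928, 14235473 and 17549564 counts in WT and 16815530, 16357083 and 16180253 counts in GRLKO, so that depth overlapped between genotypes. The 10 most abundant genes took 24.6%, 25.7% and 25.5% of the counts in WT and 23.9%, 21.5% and 23.5% in GRLKO, where every liver was lower. The leading axis of a principal component analysis carried 43.0% of the variance and parted all 3 GRLKO from all 3 WT livers. Pairs of the same genotype correlated across genes at r from 0.981 to 0.984 and pairs of unlike genotype at r from 0.969 to 0.973, where genes are not independent replicates.

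The tissue matched its label by its markers. The 7 hepatocyte markers summed to 149090, 156535 and 146989 CPM in WT and to 141981, 117482 and 143957 CPM in GRLKO, with Alb the most abundant and GRLKO replicate 2 the lowest. Apoa1 was the only member of that list to pass the test. Sums of the markers of Kupffer cells (11 tested, led by Clec4f), endothelial cells (8, led by Clec4g), stellate cells (8, led by Dcn) and cholangiocytes (4, led by Spp1, with Epcam at 0 in every library) overlapped between genotypes. Of their tested genes edgeR and DESeq2 called 0. In these lists 0, 1, 2 and 1 had an unadjusted p under 0.05, against 2285 of all 11905 tested genes. Markers of lymphocytes were too low to be tested, with sums of 0.530, 0.780 and 0.763 CPM in WT and 2.72, 1.79 and 1.32 CPM in GRLKO, led by Trbc2. Neutrophil markers, led by S100a9, summed to at most 1.00 CPM, with Mpo and Ly6g at 0, and 7 of 10 pancreas markers were at 0 in every library. Erythrocyte markers, led by Hbb-bs, summed to 789, 343 and 343 CPM in WT and 464, 460.1 and 423 CPM in GRLKO, with Alas2 the only call of 5 tested (log2 fold change 1.61 ± 0.25, adjusted p = 0.0144), lost without GRLKO replicate 3 (adjusted p = 0.0565). The hepatocyte sum was lower, and the lymphocyte and neutrophil sums higher, in every GRLKO liver, and the part of this in the differences described here was not tested.

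Of 11905 genes tested, 541 (4.54%) were called at an adjusted p under 0.05, of which 301 (2.53%) were higher and 240 (2.02%) lower in GRLKO. In all 541 the mice of the groups did not overlap, which was true of 3006 genes (25.2%) among all tested. The median log2 fold change was 0.0019 over all genes and 0.85 in size over the calls, 219 of which exceeded 2-fold. DESeq2 called 917 genes, among them 532 of the 541. Leaving out 1 library at a time, which leaves 5 mice, gave 234, 339 and 329 calls for WT replicates 1, 2 and 3 and 346, 307 and 236 calls for GRLKO replicates 1, 2 and 3. All 541 genes kept their sign in each of these 6 fits, and 168 (31.1%) were called in every one, 95 higher and 73 lower. The p-values measure the spread between these mice and their libraries.

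**Figure D1:**
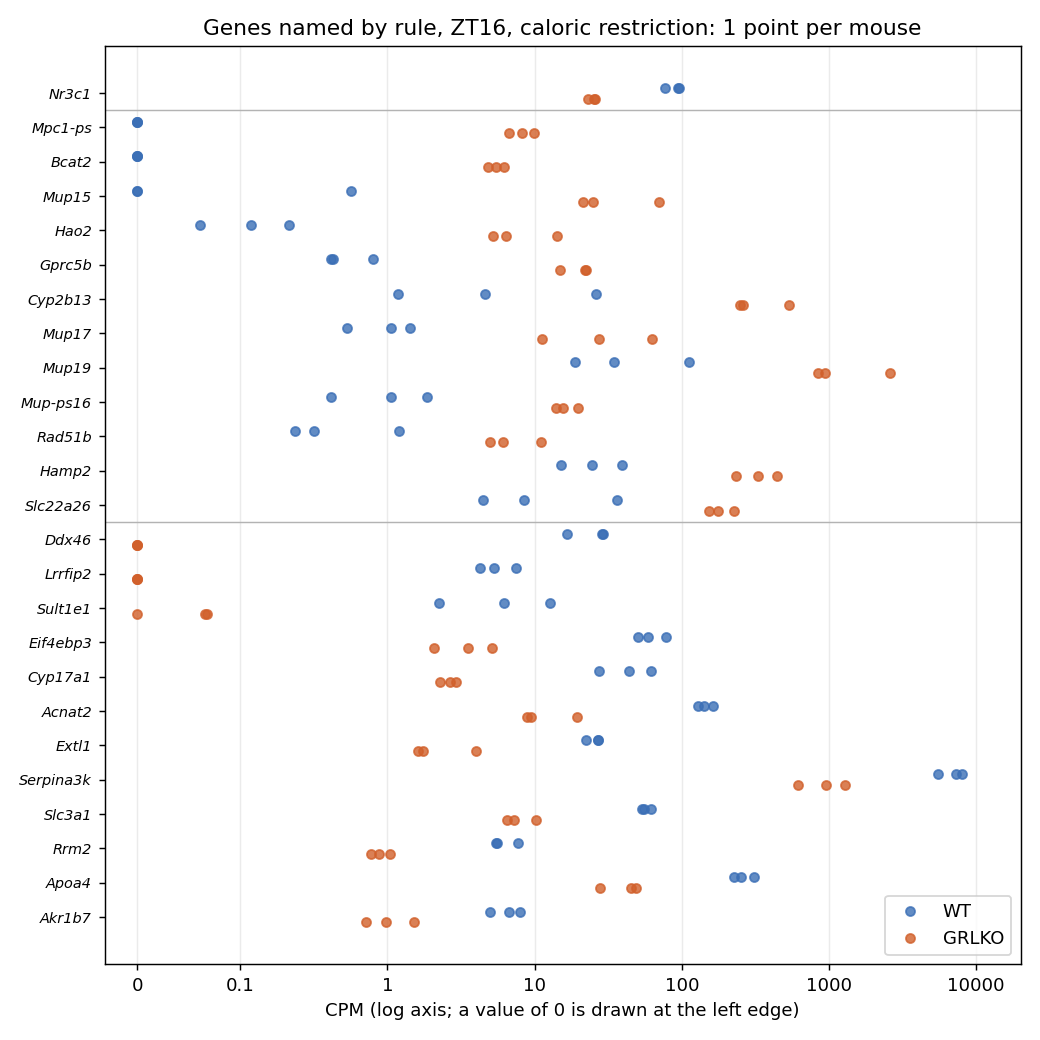
CPM in each of the 3 WT and 3 GRLKO livers at ZT16 on caloric restriction, on a log axis with 0 drawn at the left edge, for Nr3c1, the 12 genes with the largest rise and the 12 with the largest fall among called genes above 5 CPM in a genotype. In every gene shown the WT and GRLKO points do not overlap, which was a condition for choosing the genes other than Nr3c1.

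The 12 named genes with the largest rise come first. Hao2, a peroxisomal hydroxyacid oxidase, stood at 0.053, 0.213 and 0.117 CPM in WT and at 6.36, 5.18 and 14.3 CPM in GRLKO. It was near the counting floor in every WT liver and was at least 47.1-fold higher in GRLKO (adjusted p = 0.00272), where the floor is 3 counts per library. Gprc5b, an orphan receptor of the G-protein-coupled class, was measured at 0.795, 0.426 and 0.411 CPM in WT and 22.4, 22.1 and 14.8 CPM in GRLKO. All GRLKO livers were well above all WT livers (log2 fold change 5.13 ± 0.29, adjusted p = 0.000366). Hamp2, a close copy of the hepcidin gene, read 15, 39.5 and 24.4 CPM in WT and 234, 329 and 447 CPM in GRLKO. Its groups were apart (log2 fold change 3.68 ± 0.39, adjusted p = 0.00307), while hepcidin itself (Hamp) read 1916, 1165 and 1433 CPM and 1194, 1303 and 1379 CPM, overlapped and was not called (adjusted p = 0.555).

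The major urinary proteins bind pheromones, and their gene copies are so alike that reads may be split among them unevenly. Mup17 stood at 1.43, 1.06 and 0.528 CPM in WT and 27.4, 62.7 and 11.3 CPM in GRLKO. GRLKO replicate 2 was the highest, and the groups did not overlap (log2 fold change 5.04 ± 0.72, adjusted p = 0.010). Mup19 read 113, 34.8 and 18.7 CPM in WT and 939, 2591 and 839 CPM in GRLKO, again highest in GRLKO replicate 2 (log2 fold change 4.71 ± 0.78, adjusted p = 0.0177). Its call was lost without WT replicate 2 (adjusted p = 0.0628). Mup15 (7.84 ± 0.90, adjusted p = 0.00404) and the pseudogene Mup-ps16 (3.86 ± 0.40, adjusted p = 0.00307) also rose and were called in every leave-one-out fit. Mup15 was at 0 in 2 of the 3 WT livers, so that the size of its log2 fold change is uncertain. Rad51b, a gene of homologous recombination, rose (3.7 ± 0.59, adjusted p = 0.0151) and lost its call without WT replicate 1 (adjusted p = 0.0706). Cyp2b13 and Slc22a26, described with the female-biased genes, complete the named rises together with Mpc1-ps and Bcat2.

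Some of the most extreme values came from genes that switch between 0 and a clear level across the series. Whether these zeros come from the liver or from how reads were shared among similar annotated genes was not tested, and the fold bounds hold only for the counts as given. Mpc1-ps, a processed pseudogene of the mitochondrial pyruvate carrier gene, was at 0 in all 3 WT livers and at 8.2, 6.66 and 9.9 CPM in GRLKO, at least 45.2-fold higher, and it was at 0 in 14 of the 36 livers on caloric restriction. Bcat2, the mitochondrial branched-chain aminotransferase, was at 0 in WT and at 5.43, 4.82 and 6.2 CPM in GRLKO, at least 30-fold higher, and was at 0 in 15 of the 36. At ZT12 Bcat2 went the other way, with 3.44, 5.09 and 6.16 CPM in WT and 0 in all 3 GRLKO livers. Ddx46, an RNA helicase of the spliceosome, was at 29.1, 16.6 and 28.9 CPM in WT and at 0 in all 3 GRLKO livers, at least 138-fold lower, although only 4 of the 36 livers were at 0. A WT liver was among those 4, since Ddx46 read 44.7, 49.7 and 0 CPM in the 3 WT livers at ZT12. Lrrfip2 was at 5.3, 4.26 and 7.51 CPM in WT and at 0 in GRLKO, at least 31.6-fold lower, and was at 0 in 31 of the 36. In the fit of all 36 libraries Bcat2 (adjusted p = 0.0589) and Lrrfip2 (adjusted p = 0.115) were not called. Other named genes lost their call in that fit too, among them Cyp7a1 (adjusted p = 0.450), Lcn2 (adjusted p = 0.416), Egfr (adjusted p = 0.358) and Acot3 (adjusted p = 0.161), each described below. In the whole caloric restriction series 253 genes were at 0 in a liver and at 5 CPM or more in another of the same group, and 10 of the 541 calls were among them. Ddx46, Bcat2, Mup15 and Cyp2b13 belong to these genes, and in this series Mpc1-ps and Lrrfip2 switch only between groups or at lower levels. On control diet at ZT16, however, Lrrfip2 switched within the WT group, with 0, 7.2, 0 and 8.45 CPM, and was at 0 in GRLKO.

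Ddx46 and Lrrfip2, given above, had the largest named falls. Sult1e1, estrogen sulfotransferase, stood at 12.7, 6.17 and 2.23 CPM in WT and 0.0578, 0.0595 and 0 CPM in GRLKO. It was at or near 0 in all GRLKO livers and at least 39-fold lower (adjusted p = 0.00755). Cyp17a1, a steroid hydroxylase, measured 61.4, 43.6 and 27.4 CPM in WT and 2.66, 2.26 and 2.94 CPM in GRLKO. The GRLKO livers were uniformly low (log2 fold change -4.07 ± 0.32, adjusted p = 0.00125). Eif4ebp3, which binds the cap-binding factor and holds back translation, was at 50, 59.3 and 77.6 CPM in WT and 2.08, 5.12 and 3.51 CPM in GRLKO. Each GRLKO liver was far below each WT liver (log2 fold change -4.13 ± 0.29, adjusted p = 0.000697).

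Acnat2, an acyltransferase that joins fatty acids to amino acids in peroxisomes, read 163, 128 and 142 CPM in WT and 9.42, 8.81 and 19.4 CPM in GRLKO. GRLKO replicate 3 was the highest of its group and still far under WT (log2 fold change -3.53 ± 0.30, adjusted p = 0.00135), though Acnat copies are alike and reads may be shared among them. Serpina3k, a protease inhibitor secreted by hepatocytes, was at 7286, 5539.8 and 8040.4 CPM in WT and 949, 1290.1 and 620.2 CPM in GRLKO. It was among the most abundant transcripts that fell (log2 fold change -2.87 ± 0.27, adjusted p = 0.00206), with the caveat that Serpina3 copies are much alike. Slc3a1, the heavy chain of the cystine and basic amino acid carrier, read 61.3, 53.6 and 55.6 CPM in WT and 10.2, 7.2 and 6.51 CPM in GRLKO. The groups were far apart (log2 fold change -2.83 ± 0.16, adjusted p = 0.000366). Extl1, a glycosyltransferase of heparan sulfate (-3.37 ± 0.31, adjusted p = 0.00183), Rrm2, a subunit of ribonucleotide reductase (-2.79 ± 0.25, adjusted p = 0.00162), and Akr1b7, an aldo-keto reductase (-2.61 ± 0.31, adjusted p = 0.00476), fell as well.

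Gene groups of liver metabolism were read through 33 lists with 784 tested genes, 103 of them called. Members and lists were chosen with earlier results of these data known, so that their shares describe the lists and do not test them. Their counts stand against 2.53% of all tested genes called higher and 2.02% called lower, and their medians against 0.0019. Counts by DESeq2 stand against 483 genes called higher and 434 called lower of 16952. These 16952 include low-count genes that edgeR did not test, so that they are not matched to the list members in abundance.

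**Figure D2:**
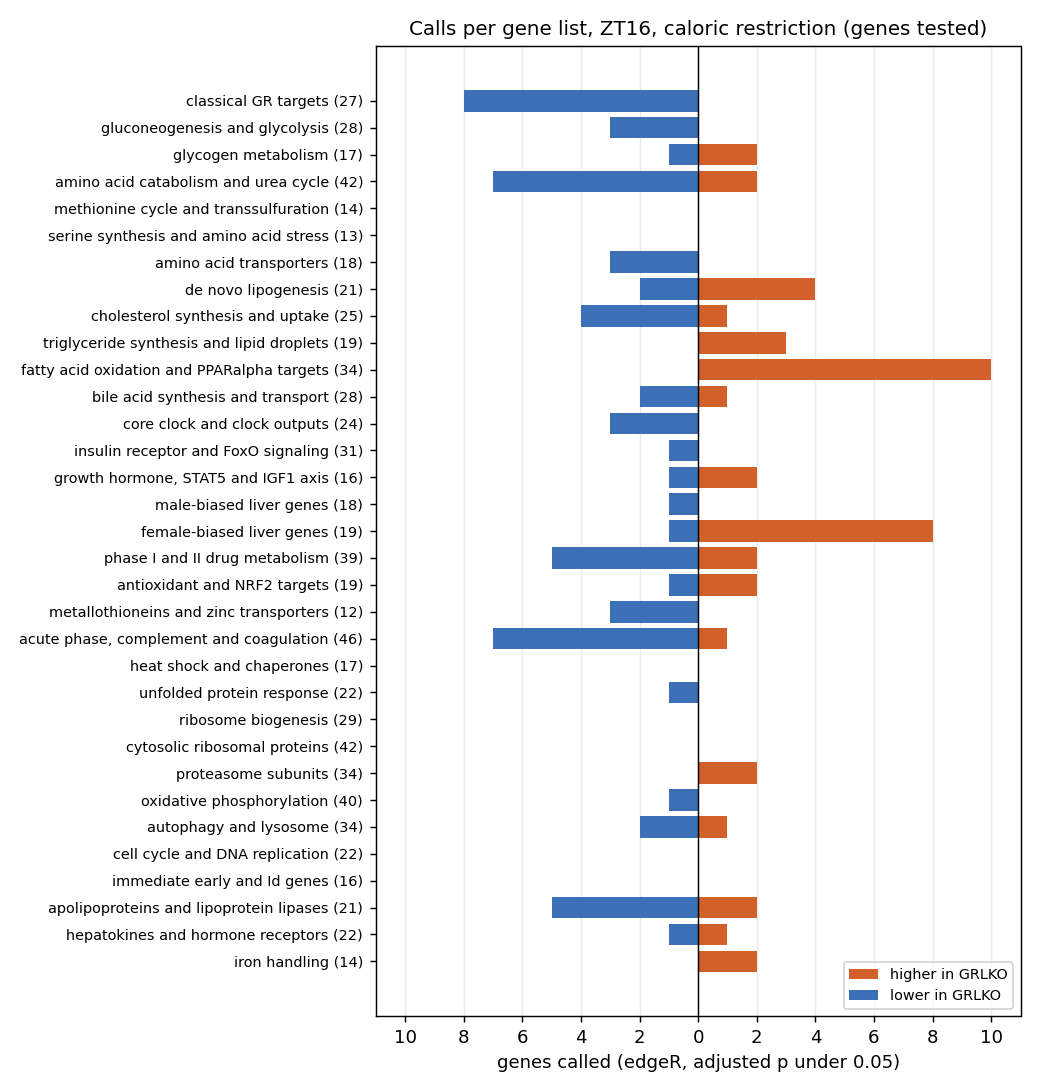
Number of genes called higher (right) and lower (left) in GRLKO at ZT16 on caloric restriction in each of 33 gene lists, with the number tested in parentheses. Fatty acid oxidation and PPARalpha targets show 10 genes higher and 0 lower, and classical GR targets 0 higher and 8 lower.

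Of 27 classical GR targets tested, 0 were called higher and 8 lower (29.6%), with a median of -0.74, and 3 of the 8 were called in every leave-one-out fit. DESeq2 called 1 higher (Angptl4) and 14 lower. Fkbp5, a co-chaperone that lowers the affinity of GR for its hormone, stood at 75.8, 86.8 and 63.2 CPM in WT and 20.6, 28.9 and 23.2 CPM in GRLKO. It was lower in each GRLKO liver (log2 fold change -1.64 ± 0.16, adjusted p = 0.00232). Fam107a, a stress-induced actin-binding protein, was at 3.23, 1.63 and 3.76 CPM in WT and 0.116, 0.119 and 0.251 CPM in GRLKO. It was close to the floor in each GRLKO liver (log2 fold change -4.11 ± 0.49, adjusted p = 0.00462). Sult1e1, given above, was the other of these 3.

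The other 5 targets that fell were called in only some of the leave-one-out fits. Per1, a clock repressor, read 36.5, 27.7 and 20.6 CPM in WT and 12.4, 13.2 and 8.52 CPM in GRLKO (log2 fold change -1.31 ± 0.24, adjusted p = 0.0252). It was lower in all 3 GRLKO livers, but called in 1 of the 6 leave-one-out fits, with an adjusted p of 0.0205 to 0.0791. Ddit4, an inhibitor of mTORC1 (-1.29 ± 0.22, adjusted p = 0.0195), and Lcn2, a siderophore-binding protein (-1.51 ± 0.25, adjusted p = 0.0186), kept their call in 3 of the 6 fits each, with adjusted p up to 0.0789 and 0.0631 without GRLKO replicate 3. Tdo2, which opens tryptophan breakdown (-0.74 ± 0.14, adjusted p = 0.0245), kept it in 2 and Mt1, a metallothionein (-2.37 ± 0.45, adjusted p = 0.0290), in 1, with adjusted p up to 0.0961 without WT replicate 1 and 0.114 without GRLKO replicate 3.

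Tsc22d3 and Tat, well-known members of the group, did not pass in edgeR at ZT16. Tsc22d3, the leucine zipper protein GILZ, stood at 172, 167 and 148 CPM in WT and 125, 128 and 148 CPM in GRLKO. The closest livers of the genotypes nearly met (log2 fold change -0.28 ± 0.10, adjusted p = 0.185). Tat, tyrosine aminotransferase, read 2526, 2067 and 1708 CPM in WT and 1247, 1353 and 1659.5 CPM in GRLKO (adjusted p = 0.107), while DESeq2 called it (adjusted p = 0.00633). At ZT12, 22 of 28 targets were called lower with a median of -1.69, against 7.84% of all tested genes, and 7 of 26 at ZT16 on the control diet with a median of -1.07, against 0.947%.

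The list of gluconeogenesis and glycolysis genes had 0 called higher and 3 lower of 28 tested, with a median of -0.23, while DESeq2 called 1 higher (Fbp1) and 11 lower. Slc37a4, the carrier that feeds glucose phosphatase in the endoplasmic reticulum, was at 287, 272 and 284 CPM in WT and 158, 151 and 113 CPM in GRLKO. The groups were far apart (log2 fold change -1.0 ± 0.13, adjusted p = 0.00758). Pfkfb2, a switch between glycolysis and gluconeogenesis, read 14, 14.3 and 15.6 CPM in WT and 8.2, 6.37 and 7.64 CPM in GRLKO. It fell in all GRLKO livers (log2 fold change -0.98 ± 0.13, adjusted p = 0.00817). Slc2a2, the glucose carrier of hepatocytes, fell (-0.41 ± 0.091, adjusted p = 0.0493) but was called in 0 of the 6 leave-one-out fits, with an adjusted p of 0.0815 to 0.138, highest without GRLKO replicate 3.

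Neither G6pc nor Pck1, enzymes of gluconeogenesis, was called. G6pc, the catalytic subunit of glucose phosphatase, read 376, 431 and 374 CPM in WT and 453, 461 and 695 CPM in GRLKO. The groups did not overlap, but the difference missed the threshold (log2 fold change 0.44 ± 0.17, adjusted p = 0.213). Pck1, phosphoenolpyruvate carboxykinase, read 636, 565 and 237 CPM in WT and 593, 431 and 809.9 CPM in GRLKO. These ranges overlapped, and WT replicate 3 was far under the other WT livers (adjusted p = 0.686).

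Among 17 genes of glycogen metabolism, 2 were called higher and 1 lower, with a median of 0.16. Pygl, liver glycogen phosphorylase, stood at 468, 514 and 436 CPM in WT and 284, 317 and 289.8 CPM in GRLKO. Every GRLKO liver was lower (log2 fold change -0.67 ± 0.10, adjusted p = 0.0105). Gys2, liver glycogen synthase, read 156, 170.0 and 179.8 CPM in WT and 283, 257 and 236 CPM in GRLKO. Every GRLKO liver was higher (log2 fold change 0.61 ± 0.10, adjusted p = 0.0174). Gys2 was called in 3 of the 6 leave-one-out fits, with an adjusted p up to 0.0784 without WT replicate 1. Ppp1r3c, which brings a phosphatase to glycogen, rose (0.81 ± 0.16, adjusted p = 0.0369) and was called in 1 of the 6, with an adjusted p up to 0.128 without GRLKO replicate 3.

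Amino acid breakdown and the urea cycle had 2 genes called higher and 7 lower (16.7%) of 42, with a median of -0.016, and 5 of the 9 were called in every leave-one-out fit. Gldc, of the glycine cleavage system, was at 322, 327 and 322 CPM in WT and 172, 179 and 187 CPM in GRLKO. Both groups were tight and well apart (log2 fold change -0.85 ± 0.077, adjusted p = 0.00174). Acmsd, which steers tryptophan carbon away from NAD synthesis, read 132, 97.2 and 129.7 CPM in WT and 36.7, 28.3 and 43.4 CPM in GRLKO. It was lower in all GRLKO livers (log2 fold change -1.73 ± 0.18, adjusted p = 0.00307).

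Amdhd1, of histidine breakdown, was the stable rise of this list beside the switching gene Bcat2 (0.61 ± 0.091, adjusted p = 0.0120). Asl, Cdo1, Prodh and Tdo2 fell with log2 fold changes of -0.84, -0.66, -0.71 and -0.74. They were called in 2, 1, 1 and 2 of the 6 leave-one-out fits, with the highest adjusted p at 0.102 without GRLKO replicate 3, 0.108 without WT replicate 1, 0.0908 without GRLKO replicate 2 and 0.0961 without WT replicate 1. Of 18 amino acid transporters, 0 were called higher and 3 lower (median -0.41), namely Slc3a1, Slc38a2 (-0.47 ± 0.089, adjusted p = 0.0288) and Slc43a1 (-0.61 ± 0.12, adjusted p = 0.0288). The latter pair were called in 1 of the 6 fits each, with adjusted p up to 0.0981 without GRLKO replicate 1 and 0.101 without WT replicate 1.

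Of 34 genes of fatty acid oxidation and PPARalpha targets, 10 were called higher (29.4%) and 0 lower, with a median of 0.24, and 7 of the 10 were called in every leave-one-out fit. With another scaling of the libraries (RLE) 9 were called higher and 0 lower, and DESeq2 called 15 higher and 1 lower, Fgf21, which was below the count filter of edgeR. Acaa1b, a peroxisomal thiolase, stood at 471, 456 and 417 CPM in WT and 1614, 1727 and 1546 CPM in GRLKO. It had the smallest adjusted p of the group, with tight values in both genotypes (log2 fold change 1.86 ± 0.091, adjusted p = 0.000227). Bdh1, which interconverts the ketone bodies, read 86.2, 99 and 84.5 CPM in WT and 239, 252 and 269 CPM in GRLKO. It was higher in each GRLKO liver (log2 fold change 1.49 ± 0.10, adjusted p = 0.000576).

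Vnn1, a pantetheinase, read 9.32, 9.79 and 4.11 CPM in WT and 42.9, 37.4 and 33.7 CPM in GRLKO. WT replicate 3 was the lowest of all, and the groups did not overlap (log2 fold change 2.3 ± 0.29, adjusted p = 0.00595). Aldh3a2, a fatty aldehyde dehydrogenase (1.01 ± 0.10, adjusted p = 0.00232), and the acyl-CoA thioesterases Acot2 (1.11 ± 0.13, adjusted p = 0.00445) and Acot4 (0.96 ± 0.13, adjusted p = 0.00777) rose as well. Acot3 (0.99 ± 0.15, adjusted p = 0.0123), Cpt1a, the gate of fatty acids into mitochondria (0.83 ± 0.16, adjusted p = 0.0305), and Decr1 (0.49 ± 0.11, adjusted p = 0.0499) rose but were called in 5, 1 and 1 of the 6 leave-one-out fits, with adjusted p up to 0.0599, 0.114 and 0.162 without WT replicate 1.

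The list of 21 lipogenesis genes had 4 called higher and 2 lower, with a median of 0.22, and 3 of these 6 were called in every leave-one-out fit. Fads2, a desaturase of polyunsaturated fatty acids, stood at 345, 342 and 301 CPM in WT and 698, 1041 and 888 CPM in GRLKO. Each GRLKO liver was above every WT liver (log2 fold change 1.41 ± 0.15, adjusted p = 0.00307). Fads1, the partner desaturase (0.86 ± 0.11, adjusted p = 0.00641), rose too. Elovl5, an elongase of such fatty acids, read 234, 269 and 273 CPM in WT and 478, 835 and 813 CPM in GRLKO. The groups were apart (log2 fold change 1.45 ± 0.20, adjusted p = 0.00958), with the call just lost without WT replicate 1 (adjusted p = 0.0509).

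Mid1ip1, an activator of acetyl-CoA carboxylase, stood at 123, 118 and 98.8 CPM in WT and 54.7, 54.3 and 49.3 CPM in GRLKO. It fell in all GRLKO livers (log2 fold change -1.1 ± 0.11, adjusted p = 0.00250). Fasn, fatty acid synthase, read 791, 766 and 454 CPM in WT and 248, 351 and 225 CPM in GRLKO. WT replicate 3 was the lowest WT liver and still above each GRLKO liver (log2 fold change -1.29 ± 0.25, adjusted p = 0.0290). Fasn was called in 2 of the 6 leave-one-out fits, with an adjusted p of 0.0156 to 0.109, highest without GRLKO replicate 3. Acss2 rose (0.58 ± 0.11, adjusted p = 0.0271) and was called in 1 of the 6, with an adjusted p up to 0.106 without WT replicate 1.

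Cholesterol synthesis and uptake had 1 gene called higher and 4 lower (16%) of 25, with a median of -0.25. Insig1, which holds the sterol sensor in the endoplasmic reticulum, stood at 762, 784 and 717 CPM in WT and 379, 446 and 440.3 CPM in GRLKO. Every GRLKO liver was far lower (log2 fold change -0.84 ± 0.093, adjusted p = 0.00376). Lss (-0.46 ± 0.095, adjusted p = 0.0401) and Mvd (-1.38 ± 0.30, adjusted p = 0.0455) fell and Pmvk rose (0.46 ± 0.10, adjusted p = 0.0476), each called in 1 of the 6 leave-one-out fits, with adjusted p up to 0.124 without GRLKO replicate 1 for Lss and up to 0.141 and 0.152 without WT replicate 1 for Mvd and Pmvk. With RLE scaling Pmvk was not called.

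Of 19 genes of triglyceride synthesis and lipid droplets, 3 were called higher and 0 lower. Cidec, which fuses lipid droplets, was at 1.75, 0.922 and 0.998 CPM in WT and 13, 13.7 and 8.39 CPM in GRLKO. It was several times higher in each GRLKO liver (log2 fold change 3.23 ± 0.31, adjusted p = 0.00209). Mogat1 (2.72 ± 0.45, adjusted p = 0.0173) and Plin2, a droplet coat protein (0.49 ± 0.10, adjusted p = 0.0423), rose and were called in 1 of the 6 leave-one-out fits each, with adjusted p up to 0.0753 without WT replicate 3 and 0.134 without WT replicate 1.

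Bile acid genes had 1 called higher and 2 lower of 28. Abcc3, an export pump for bile salts toward the blood, stood at 176, 173 and 175 CPM in WT and 304, 389 and 405 CPM in GRLKO. The WT livers were almost alike and all GRLKO livers higher (log2 fold change 1.07 ± 0.12, adjusted p = 0.00340). Cyp27a1, which starts the alternative synthesis path, read 460.3, 428 and 397 CPM in WT and 247, 262 and 244 CPM in GRLKO. The GRLKO livers were the lower ones (log2 fold change -0.77 ± 0.089, adjusted p = 0.00417). Cyp7a1, the rate-limiting enzyme of the classical path, fell (-0.76 ± 0.16, adjusted p = 0.0363) and was called in 1 of the 6 leave-one-out fits, with an adjusted p up to 0.117 without WT replicate 1.

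Apolipoproteins and lipases had 2 genes called higher and 5 lower (23.8%) of 21. Apoa4, of chylomicrons and HDL, stood at 309.8, 253 and 228 CPM in WT and 28, 48.7 and 45 CPM in GRLKO. It was lower in each GRLKO liver (log2 fold change -2.7 ± 0.22, adjusted p = 0.00134). Pltp, phospholipid transfer protein, read 11.2, 16.5 and 14 CPM in WT and 63, 50.4 and 37.5 CPM in GRLKO. It was higher in each GRLKO liver (log2 fold change 1.86 ± 0.22, adjusted p = 0.00420). Apoa1, the main protein of HDL, read 3268, 3286 and 2628 CPM in WT and 1727, 1342 and 992 CPM in GRLKO. The groups did not overlap (log2 fold change -1.177 ± 0.20, adjusted p = 0.0199). Apoa1, Apom and Mttp fell and Apoa2 rose, called in 3, 3, 1 and 1 of the 6 leave-one-out fits. Their highest adjusted p was 0.0774, 0.0681, 0.0743 and 0.123 in that order, each without WT replicate 1.

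Sex-biased liver genes, many of which follow the pulses of growth hormone through STAT5, were read as 2 lists by the sex with the higher level. Of 19 female-biased genes tested, 8 were called higher (42.1%) and 1 lower, with a median of 1.26, and 3 of these 9 were called in every leave-one-out fit. Those were Hao2 and Cyp17a1, given above, and Cyp2b10, a drug-induced P450, at 10.8, 9.86 and 8.81 CPM in WT and 62.1, 29.7 and 55.3 CPM in GRLKO. Cyp2b10 was higher in all GRLKO livers (log2 fold change 2.32 ± 0.27, adjusted p = 0.00430). Cyp2b copies are alike, so that reads may be shared among them. Cyp2b13, a P450 typical of females, read 4.61, 26 and 1.17 CPM in WT and 250.2, 259 and 533 CPM in GRLKO. Slc22a26, an organic anion carrier, read 8.42, 36.1 and 4.46 CPM in WT and 227, 153 and 177 CPM in GRLKO. In both genes WT replicate 2 was the highest WT liver and still below every GRLKO liver. The log2 fold change was 5.06 ± 0.95 (adjusted p = 0.0276) for Cyp2b13 and 3.52 ± 0.69 (adjusted p = 0.0316) for Slc22a26. Cyp2b13 was called in 2 and Slc22a26 in 1 of the 6 leave-one-out fits, with adjusted p up to 0.112 and 0.117 without WT replicate 1.

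Slc22a27 (2.12 ± 0.42, adjusted p = 0.0329), Abcd2 (1.11 ± 0.23, adjusted p = 0.0360) and Prom1 (1.99 ± 0.43, adjusted p = 0.0443) rose as well, called in 2, 1 and 2 of the 6 leave-one-out fits, with adjusted p up to 0.129 and 0.149 without WT replicate 1 for Slc22a27 and Prom1, and 0.118 without GRLKO replicate 3 for Abcd2. Of 18 male-biased genes, edgeR called 0 higher and Serpina3k alone lower, with a median of -0.48. Mup15, Mup17 and Mup19, given above, and Car3, described below as abundant in male rodent liver, rose and were not in this list. An unadjusted p under 0.05 was found for 12 of the 18, against 2285 of all 11905 tested genes. DESeq2 called 1 higher (Nudt7) and 6 lower, against 483 and 434 of 16952 genes, low-count genes included. In the growth hormone axis 2 genes of 16 were called higher and 1 lower. Ghr, the growth hormone receptor, read 311, 344 and 362 CPM in WT and 496, 506 and 516 CPM in GRLKO. Here each GRLKO liver was higher (log2 fold change 0.58 ± 0.086, adjusted p = 0.0119), and the call was just lost without WT replicate 1 (adjusted p = 0.0510). Stat5a rose (0.50 ± 0.10, adjusted p = 0.0374) and Egfr fell (-0.86 ± 0.19, adjusted p = 0.0476), each called in 1 of the 6 fits, with adjusted p up to 0.125 and 0.146 without GRLKO replicate 3. Igf1 read 636, 721 and 717 CPM in WT and 668, 818 and 790.0 CPM in GRLKO, overlapped and was not called (adjusted p = 0.558).

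Car3, a carbonic anhydrase abundant in male rodent liver and in fat cells, had among the clearest rises. It stood at 490.1, 712 and 567 CPM in WT and 3652, 3724 and 4050.0 CPM in GRLKO. The lowest GRLKO liver was far above the highest WT liver (log2 fold change 2.69 ± 0.15, adjusted p = 0.000366). Car3 led an 8-gene list of adipocyte markers whose sums were 508, 726 and 582 CPM in WT and 3666, 3738 and 4062 CPM in GRLKO. Lep and Plin1, which define that cell type, were at 0 in every library, and of the 3 members tested Car3 alone was called.

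Hormone transport and hepatokines gave 1 gene called higher and 1 lower of 22, both called in every leave-one-out fit. Serpina6, the corticosteroid-binding globulin of plasma, stood at 181, 303 and 225 CPM in WT and 903, 799 and 1190.0 CPM in GRLKO. The lowest GRLKO liver exceeded the highest WT liver (log2 fold change 2.03 ± 0.22, adjusted p = 0.00346). Enho, which encodes adropin, read 6.36, 4.61 and 3.11 CPM in WT and 0.982, 0.952 and 1.06 CPM in GRLKO. It was uniformly low in GRLKO (log2 fold change -2.23 ± 0.31, adjusted p = 0.00960).

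In the clock list, 0 genes were called higher and 3 lower of 24, with a median of -0.077. Npas2, a partner of the core activator Arntl, stood at 5.77, 7.45 and 6.93 CPM in WT and 2.37, 1.84 and 1.88 CPM in GRLKO. All GRLKO livers were lower (log2 fold change -1.72 ± 0.20, adjusted p = 0.00440). Ciart, a repressor of the clock, read 11.4, 7.73 and 11.2 CPM in WT and 3.87, 3.63 and 4.07 CPM in GRLKO. It too was lower in each GRLKO liver (log2 fold change -1.39 ± 0.19, adjusted p = 0.00770). Arntl read 25.6, 33.8 and 23.5 CPM in WT and 18.2, 20.3 and 19.4 CPM in GRLKO and was not called (adjusted p = 0.101).

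Drug metabolism had 2 genes called higher and 5 lower (12.8%) of 39. Sult1d1, a sulfotransferase, stood at 299, 269 and 288 CPM in WT and 62.2, 74.7 and 89.9 CPM in GRLKO. Each GRLKO liver was far lower (log2 fold change -1.92 ± 0.14, adjusted p = 0.000697). Fmo5, a flavin monooxygenase, read 2092, 2332 and 2510.2 CPM in WT and 1298, 1035 and 1145 CPM in GRLKO. The groups did not overlap (log2 fold change -1.0 ± 0.11, adjusted p = 0.00404). Ces1f, a carboxylesterase, rose in all GRLKO livers (log2 fold change 0.76 ± 0.078, adjusted p = 0.00307). Cyp2c70, Cyp2d10 and Gstm3 fell and Ugt1a1 rose, called in 4, 0, 1 and 0 of the 6 leave-one-out fits, with adjusted p up to 0.0644 and 0.141 without GRLKO replicate 2 for Cyp2c70 and Gstm3, and 0.10 and 0.138 without WT replicate 1 for Cyp2d10 and Ugt1a1. With RLE scaling 6 were called lower.

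Among 46 genes of the acute phase, complement and coagulation, 1 was called higher and 7 lower (15.2%), with a median of -0.066. Cp, ceruloplasmin, was at 1023, 976 and 911 CPM in WT and 639, 601 and 635 CPM in GRLKO. It was lower in every GRLKO liver and the only member of this list called in every leave-one-out fit (log2 fold change -0.64 ± 0.084, adjusted p = 0.00718). The receptor subunit Il6ra (-0.71 ± 0.12, adjusted p = 0.0193) and the plasma proteins F9 (-0.49 ± 0.088, adjusted p = 0.0233) and Lbp (-0.88 ± 0.17, adjusted p = 0.0326) fell. These 3 were called in 1 of the 6 fits each, with adjusted p up to 0.0740 for F9 without GRLKO replicate 2, 0.0618 for Il6ra without GRLKO replicate 1 and 0.121 for Lbp without GRLKO replicate 3.

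Each of 8 other lists had 3 calls or fewer. Antioxidant genes had 2 called higher and 1 lower of 19, metallothioneins and zinc carriers 0 and 3 of 12 (25%), insulin and FoxO signaling 0 and 1 of 31, the unfolded protein response 0 and 1 of 22, proteasome subunits 2 and 0 of 34, oxidative phosphorylation 0 and 1 of 40, autophagy and lysosome 1 and 2 of 34, and iron handling 2 and 0 of 14. In the antioxidant, proteasome and iron lists 1 gene each was called in every leave-one-out fit, and in the other 5 lists 0 were. Psme1, a subunit of the proteasome activator, was the stable rise among the proteasome genes (log2 fold change 0.69 ± 0.085, adjusted p = 0.00579). Catalase, Cat, rose in all GRLKO livers (log2 fold change 0.50 ± 0.078, adjusted p = 0.0141) and was called in 3 of the 6 leave-one-out fits, with an adjusted p up to 0.0657 without WT replicate 1.

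In 7 lists edgeR called 0 genes. Over all genes, 2285 of 11905 had an unadjusted p under 0.05, and DESeq2 called 917 of 16952, low-count genes included. For methionine metabolism (14 tested) 5 genes had an unadjusted p under 0.05 and DESeq2 called 2. For serine synthesis and amino acid stress (13 tested) these counts were 5 and 3, for heat shock (17) 2 and 0, and for ribosome biogenesis (29) 3 and 0. For ribosomal proteins (42) they were 5 and 3, for the cell cycle (22) 6 and 4, and for immediate early genes (16) 2 and 1. The medians of these lists, in the same order, were -0.14, -0.43, -0.021, 0.033, 0.0098, 0.31 and -0.098. Rrm2, which fell, and Rad51b, which rose, both given above, were not in the cell cycle list.

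Transcripts of the mitochondrial genome did not move together. This set was looked at after its values were seen. All 13 protein genes of mitochondrial DNA were tested, and 0 were called higher and 7 lower, against 2.53% and 2.02% of all tested genes. They lie in a row on 1 molecule, and mt-Nd3 (chrM:9459-9806), a subunit of complex I, stood at 1057, 1087 and 1259 CPM in WT and 207, 242 and 158 CPM in GRLKO. Every GRLKO liver was far lower (log2 fold change -2.49 ± 0.16, adjusted p = 0.000576). mt-Atp6 (chrM:7927-8607), of the ATP synthase, read 12958, 13567 and 14596 CPM in WT and 4800.2, 5245 and 4289.5 CPM in GRLKO. The groups were again far apart (log2 fold change -1.52 ± 0.10, adjusted p = 0.000529).

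mt-Atp8 (chrM:7766-7969) fell as well (-1.07 ± 0.10, adjusted p = 0.00174). Its coordinates overlap those of mt-Atp6, so that the falls of mt-Atp8 and mt-Atp6 may not be independent. mt-Nd3, mt-Atp6 and mt-Atp8 were called in every leave-one-out fit. By contrast mt-Co1 (chrM:5328-6872), of cytochrome oxidase, read 37207, 39555 and 44649.9 CPM in WT and 38443, 38204 and 41344 CPM in GRLKO. Its values overlapped (log2 fold change -0.042 ± 0.083, adjusted p = 0.851). mt-Co2 (-1.05 ± 0.17, adjusted p = 0.0158), mt-Nd4 (-0.50 ± 0.076, adjusted p = 0.0133), mt-Nd6 (-0.76 ± 0.15, adjusted p = 0.0318) and mt-Nd2 (-0.46 ± 0.093, adjusted p = 0.0351) fell and were called in 4, 5, 1 and 0 of the 6 leave-one-out fits. Their highest adjusted p was 0.0695, 0.0581 and 0.116 without GRLKO replicate 3 for mt-Co2, mt-Nd4 and mt-Nd2, and 0.108 without WT replicate 1 for mt-Nd6. mt-Nd1 (0.073 ± 0.093, adjusted p = 0.745), mt-Co3 (-0.23 ± 0.083, adjusted p = 0.181) and mt-Cytb (-0.20 ± 0.075, adjusted p = 0.204) were not called. The 13 genes together took 12.3%, 12.6% and 14.1% of the counts in WT and 10.7%, 10.4% and 10.4% in GRLKO, so that the share was lower in every GRLKO liver. At ZT12, 7 of the 13 genes were called, all lower, against 7.84% of all tested genes. The deepest falls there were those of mt-Cytb (-0.79 ± 0.11, adjusted p = 0.00424), mt-Nd4 (-0.66 ± 0.10, adjusted p = 0.00661) and mt-Nd4l (-0.60 ± 0.12, adjusted p = 0.0164). Of these mt-Cytb and mt-Nd4l were not called at ZT16. For mt-Nd3 the effect at ZT12 was -0.48 ± 0.085 (adjusted p = 0.0109) and for mt-Atp6 -0.43 ± 0.077 (adjusted p = 0.0113). Whether these differences arose in the liver or in the making of the libraries was not tested.

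The same genotypes were also sampled 4 h earlier, before the meal, so that the genotype effect can be tested against the hour. At ZT12, 1795 of 11759 genes (15.3%) were called, 873 (7.42%) higher and 922 (7.84%) lower. Cell markers were among them, with 7 of 11 Kupffer markers (median 1.05) and 2 of 8 endothelial markers (Oit3 and Lyve1) higher and 4 of 7 hepatocyte markers (Alb, Apoa1, Hnf4a and Cyp2e1) lower, against 0, 0 and 1 called at ZT16. The part of cell content in the differences at ZT12 and between the times was not tested. The number of genes called became 1099 and 1032 without ZT12 WT replicates 2 and 3, and 1193, 1137 and 899 without ZT12 GRLKO replicates 1, 2 and 3. The ZT16 calls shared 303 genes with them, 56.0% of the 541 and 16.9% of the 1795, and 293 of the 303 had the same direction. The genotype effect differed between the times for 388 of 12312 genes (3.15%) by a test of the difference itself. Of the 384 tested at both times, 52 had the larger effect at ZT16, and 231 had effects of opposite sign. Among the 541 genes called at ZT16, 61 (11.3%) passed this test. The count of 388 fell to 229 without ZT12 GRLKO replicate 3, to 210 without ZT16 WT replicate 1 and to 233 without ZT16 GRLKO replicate 3.

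**Figure D3:**
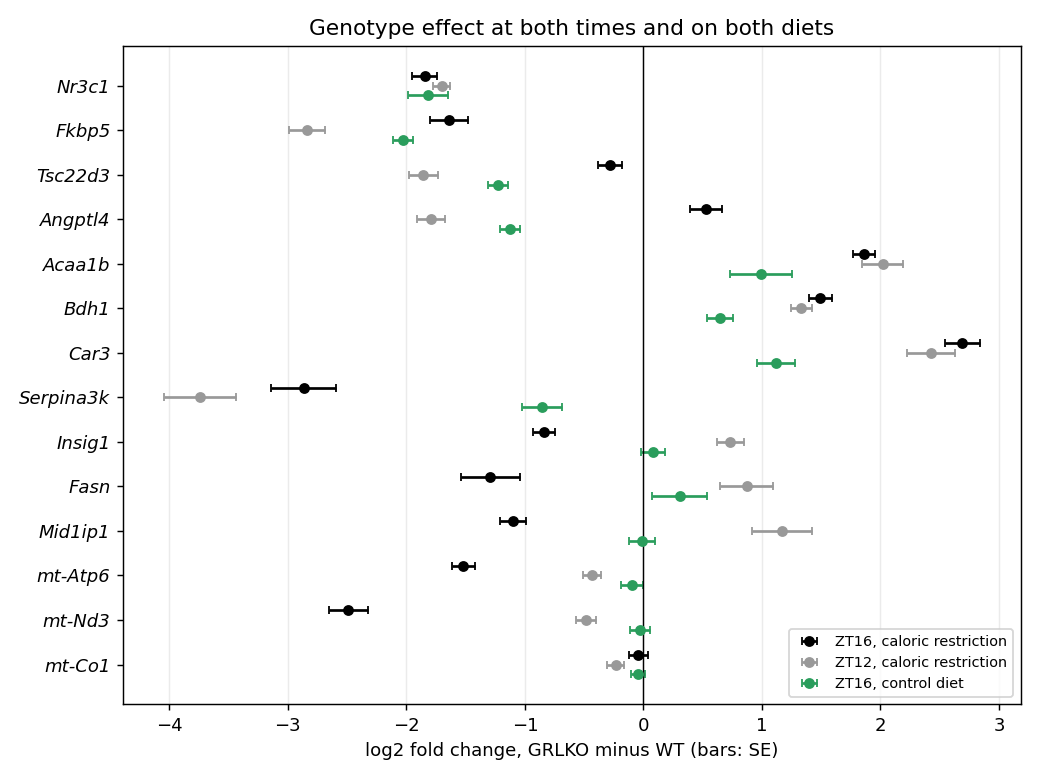
Log2 fold change of GRLKO against WT with its standard error at ZT16 on caloric restriction (black), at ZT12 on caloric restriction (grey) and at ZT16 on control diet (green) for 14 genes, with 3 mice per group and 4 WT mice on control diet. Insig1, Fasn and Mid1ip1 lie below 0 at ZT16 and above 0 at ZT12 on caloric restriction, and mt-Nd3 and mt-Atp6 lie farthest from 0 at ZT16 on caloric restriction.

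Some genes of sterol and fatty acid synthesis had effects of opposite sign at the 2 times. Insig1 read 339, 267 and 312 CPM in WT and 485, 554 and 494 CPM in GRLKO at ZT12. There the GRLKO livers were the higher ones, and at ZT16 they were the lower ones, a difference of -1.59 ± 0.14 (adjusted p = 0.000346) on the log2 scale. For Fasn the difference was -2.18 ± 0.37 (adjusted p = 0.0111) and for Mid1ip1 -2.29 ± 0.30 (adjusted p = 0.00298). In all, 7 of the 25 cholesterol genes and 5 of the 21 lipogenesis genes had a genotype effect that differed between the times, against 3.15% of all genes. Fads2, Fads1 and Elovl5 rose at both times, and their effects were not called different (adjusted p = 0.177, 0.513 and 0.884).

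Of 28 classical GR targets, 6 had a genotype effect that differed between the times, against 3.15% of all genes. Fkbp5 stood there at 333, 321 and 392 CPM in WT and 57.4, 49.2 and 40.7 CPM in GRLKO. Its fall was shallower at ZT16 by 1.183 ± 0.23 (adjusted p = 0.0203). Tsc22d3 read 212, 246 and 263 CPM in WT and 59.1, 74.5 and 66.6 CPM in GRLKO at ZT12. All GRLKO livers were clearly lower then, and the difference to ZT16 was 1.56 ± 0.16 (adjusted p = 0.000862).

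Angptl4, an inhibitor of lipoprotein lipase, read 256, 284 and 249 CPM in WT and 72.3, 68.5 and 88.7 CPM in GRLKO at ZT12, and 25.3, 32.8 and 24.6 CPM and 40.4, 43.7 and 35.1 CPM at ZT16. It was lower in all GRLKO livers at ZT12 and on the higher side in all at ZT16, with a difference of 2.31 ± 0.19 (adjusted p = 0.000236). The smallest p-values of this test also fell on Slc45a3 at 2.29 ± 0.17 (adjusted p = 0.000236), Cdip1 at 1.31 ± 0.11 (adjusted p = 0.000236), Acsl3 at -1.22 ± 0.10 (adjusted p = 0.000236) and the switching gene Bcat2 (adjusted p = 0.000236).

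**Figure D4:**
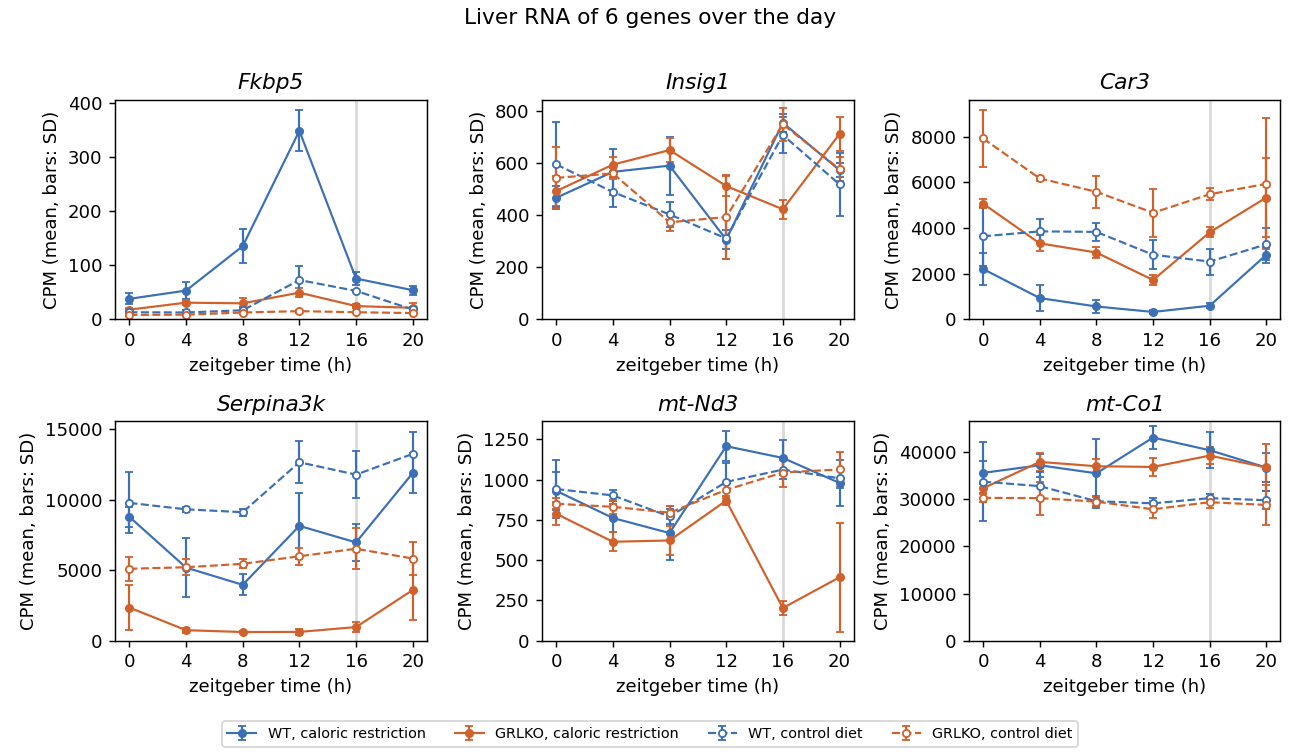
Mean CPM with standard deviation over 6 times of day for WT and GRLKO livers on caloric restriction (filled points) and control diet (open points), 3 or 4 mice per point, with a grey line at ZT16 and CPM scaled within each diet. On caloric restriction mt-Nd3 in GRLKO averages 869 CPM at ZT12 and 202 CPM at ZT16, while Insig1 in WT goes from 306 to 754 CPM.

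On the control diet at the same hour, 232 of 11723 genes (1.98%) were called, 121 (1.03%) higher and 111 (0.947%) lower. Of these, 109 were also called on caloric restriction, 20.1% of the 541 and 47.0% of the 232, and all 109 had the same direction. In all 3 comparisons 92 genes were called, 48 higher and 44 lower in each. The genotype effect differed between diets for 29 of 12385 genes (0.234%), 23 of them with the larger effect on caloric restriction and 14 with effects of opposite sign. Of 540 ZT16 calls tested, 22 (4.07%) passed. The count of 29 became 18 without WT replicate 3 on caloric restriction and 49 without WT replicate 3 on control diet. The count of 232 became 147, 93 and 108 without WT replicates 1, 2 and 4 and 104, 84 and 88 without GRLKO replicates 1, 2 and 3.

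After the switching gene Ddx46 (adjusted p = 2.66e-05), the smallest p-values of the diet test fell on mt-Nd3 and mt-Atp6. mt-Nd3 on control diet read 1119, 977, 1059 and 1092 CPM in WT and 944, 1106 and 1082 CPM in GRLKO. These groups overlapped, and the effect on caloric restriction was lower by a log2 difference of -2.47 ± 0.18 (adjusted p = 7.36e-05). For mt-Atp6 the difference was -1.43 ± 0.14 (adjusted p = 0.000853), and for mt-Atp8, further down the ranking, -1.03 ± 0.12 (adjusted p = 0.00290). Of the 13 mitochondrial protein genes, 0 were called by edgeR on control diet, where 1.98% of all tested genes were called. The test of the diet difference itself passed for 3 of the 13, those just given, and not for mt-Nd4 (adjusted p = 0.207), mt-Co2 (adjusted p = 0.0907), mt-Nd2 (adjusted p = 0.102) or mt-Nd6 (adjusted p = 0.786).

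Serpina3k read 10180.5, 12788, 13568 and 10511 CPM in WT and 5389, 8141 and 5992 CPM in GRLKO on control diet. The GRLKO livers were lower there too, with a deeper fall on caloric restriction by -2.02 ± 0.33 (adjusted p = 0.0289). Car3 stood at 3158, 2861, 1993 and 2092 CPM in WT and 5699.9, 5543 and 5194 CPM in GRLKO on control diet. The groups were apart on both diets, and the rise was larger on caloric restriction by 1.57 ± 0.24 (adjusted p = 0.0158). Insig1 differed by -0.92 ± 0.14 (adjusted p = 0.0145), Mid1ip1 by -1.09 ± 0.16 (adjusted p = 0.0145), Bdh1 by 0.85 ± 0.15 (adjusted p = 0.0499), Angptl4 by 1.65 ± 0.17 (adjusted p = 0.00108) and Fubp1, a DNA- and RNA-binding protein, by -1.45 ± 0.15 (adjusted p = 0.00108). Nr3c1 fell in all 3 settings, with log2 fold changes of -1.84 ± 0.11 at ZT16, -1.7 ± 0.075 at ZT12 and -1.82 ± 0.17 on control diet, and neither difference passed (adjusted p = 0.536 and 0.984).

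Promoter letters were read for the called genes in the 250 bases before each gene start, from RefSeq on GRCm38.p6, as a description chosen after the values were seen. The hexamer AGAACA, a part of many GR binding sites, was looked for on both strands. It is in 16.1% of all 32851 promoters, in 13.2% of those of the 9235 tested genes with a promoter, in 29 of 223 (13%) of those of genes called higher and in 25 of 186 (13.4%) of those of genes called lower. Acnat2, Akr1b7, Apoa4, Cp, Fam107a, Mid1ip1 and Pfkfb2 are among the genes called lower that hold it, and Alas2, Cat, Mup-ps16, Prom1 and Slc22a26 among those called higher, so that the shares do not tell the directions apart. The promoters of Acnat2 (chr4:49408152-49408401, minus strand) and Fam107a (chr14:8309780-8310029, minus strand) are shown as examples of genes with a deep and stable fall. They were picked after their values and letters were seen in an earlier search for a longer GR motif that is not reported here. Each match of the hexamer, on either strand, is in capitals. The start used for Fam107a is 1 of several in RefSeq and lies inside the gene as GENCODE M21 draws it. A match describes letters and does not show binding.
Acnat2: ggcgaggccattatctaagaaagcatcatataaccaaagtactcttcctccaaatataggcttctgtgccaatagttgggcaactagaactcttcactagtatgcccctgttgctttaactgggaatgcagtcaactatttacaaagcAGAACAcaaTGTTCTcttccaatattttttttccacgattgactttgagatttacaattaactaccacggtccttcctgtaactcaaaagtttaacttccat
Fam107a: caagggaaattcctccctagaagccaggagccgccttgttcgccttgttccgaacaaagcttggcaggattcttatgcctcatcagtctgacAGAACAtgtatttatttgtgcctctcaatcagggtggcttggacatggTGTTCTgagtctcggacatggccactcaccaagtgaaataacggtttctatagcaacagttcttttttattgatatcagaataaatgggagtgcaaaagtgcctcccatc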

How the data were processed

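The deposited values are expected counts per gene, without normalization, which the authors obtained with Salmon 1.8.0 and tximport 1.18.0 after read checks in FastQC 0.11.9, with mm10 named in the processing notes. Of 27654 gene IDs, 27244 had a symbol. Counts were rounded and tested in R 4.3.3 with edgeR 4.0.16 (TMM, filterByExpr at a minimum count of 10, quasi-likelihood F test, Benjamini-Hochberg) on the libraries of each comparison. CPM were scaled by TMM over all libraries of a diet. The interaction of genotype with time used 12 libraries and that with diet 13, with a mean per group. Diet and batch of libraries cannot be told apart. A batch effect equal in both genotypes drops out of that difference, and one that differs by genotype does not. Named genes were Nr3c1, the 12 largest rises and 12 largest falls among called genes with at least 5 CPM in a genotype, no overlap of mice and no predicted name, then list members by adjusted p, and the 5 smallest p of each interaction. Some list members are not reported here but are in the counts. Predicted or unnamed genes (15 calls, 12 higher and 3 lower) were only counted. Members and lists were chosen with earlier results of these data known. A group with at most 3 counts in every library (19 calls) gives a lower bound, computed against 3 counts per library and covering counting error only. Alternatives were DESeq2 1.42.0, RLE scaling, other filters, a replicate block, a fit of all 36 libraries and leaving out each library. The tests were also run on simulated data with 200 changed genes. There the ZT16 test found 97 of 100 2-fold and 100 of 100 4-fold changes and called 10 unchanged genes. Each interaction test found 66 of 100 2-fold changes (6 unchanged genes called for time, 10 for diet). Whether such shares hold at the spread between these mice was not tested. Of the 541 calls in the libraries themselves, 168 held in every leave-one-out fit. Coordinates are from GENCODE M21. Data of the series from other experiments were not used here.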

Additional observations from a re-analysis of the deposited data

Results flagged for a closer look

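A set of 147 genes was followed one by one, some of them not named here. For 29 of the 147 the effect of the genotype differed between ZT16 and ZT12 on caloric restriction. For 18 it differed between caloric restriction and control diet at ZT16. Each count is from an edgeR test of the difference at an adjusted p under 0.05. Over all genes these shares were 3.15% and 0.234%, but some named genes were chosen by these same tests or for opposite directions, so that the counts are not a measure of how common such genes are. None of the 19 genes checked in the 4 WT livers on control diet had a liver set apart from the others. The GRLKO livers on control diet were not part of this check. Between their counts, the chi-square per degree of freedom was 77.1 and 39.7 for replicate 1 against replicates 2 and 3. It was 29.4 between replicates 2 and 3, and 17.6 to 33.1 among the WT livers. Values below are log2 differences, where a positive value means that the effect was higher at ZT16 or on caloric restriction.

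Between times, GR targets and liver metabolic genes differed by 1.183 for Fkbp5, 1.56 for Tsc22d3, -0.51 for Slc2a2, 1.5 for Ppp1r3c, 1.83 for Slc43a1, 1.21 for Fmo5, 0.59 for Cyp2e1, 0.67 for Hnf4a and 5.79 for Mup17. Lipid and sterol genes differed by -2.29 for Mid1ip1, -2.18 for Fasn, -1.59 for Insig1, -0.85 for Lss, 2.43 for Cidec, -1.22 for Acsl3 and 2.31 for Angptl4. Mitochondrial transcripts differed by -2.02 for mt-Nd3, -1.1 for mt-Atp6, -0.76 for mt-Atp8 and 0.58 for mt-Cytb. Others differed by 2.29 for Slc45a3, 1.31 for Cdip1, -1.45 for Fubp1, -0.56 for Ppp1cb, -1.0 for Acbd5, -1.36 for Ap3s1, 1.28 for Arl4a and 1.17 for Hmgn2. Bcat2, at 0 in every WT liver at ZT16 and in every GRLKO liver at ZT12, had an adjusted p of 0.000236.

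Between diets, the effect differed by -2.02 for Serpina3k, 0.94 for Tsc22d3, -1.09 for Mid1ip1, -0.92 for Insig1, -0.90 for Lss, 0.85 for Bdh1, -0.69 for Cycs, 1.57 for Car3 and 1.65 for Angptl4. It differed by -2.47 for mt-Nd3, -1.43 for mt-Atp6, -1.03 for mt-Atp8, -1.45 for Fubp1, -0.80 for Ppp1cb, -0.81 for Acbd5 and -1.12 for Ap3s1. Ddx46 had an adjusted p of 2.66e-05 and Bcat2 of 0.0289, each with a group at 0. Acbd5, Ap3s1, Arl4a, Fubp1 and Hmgn2 are among the 10 genes called at both times with opposite directions and were chosen after their values were seen.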

How the results depend on the processing

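The 541 calls at ZT16 on caloric restriction became 917 with DESeq2 (532 shared), 1025 in a fit of all 36 libraries of the series (462 shared), and 234 to 346 when 1 library was left out, lowest without WT replicate 1. RLE scaling, no filter and a minimum count of 50 gave 535, 539 and 556. With the replicate block, which pairs mice by number, 287 genes were called (265 shared). The correlation of residuals was -0.029, -0.16 and -0.0088 for mice of the same number and -0.094 to 0.121 for the other pairs. With 3 mice per group these values cannot decide whether the numbers pair the mice.

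At ZT12 leaving out 1 library gave 899 to 1329 calls. On control diet DESeq2 called 632, and leaving out 1 library gave 84 to 183. The test between times gave 832 with DESeq2 and 210 to 357 without 1 library. The test between diets gave 186 with DESeq2 and 18 to 49 without 1 library. Fits without a library hold fewer samples. For the other settings the cause was not tested.

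Alternatives chosen after seeing the data were a fit without the switching genes (615 calls), a fit without mitochondrial genes (520), and replicates 1 to 3 alone, which gave 108 calls on control diet and 20 between diets, with fewer samples.

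Of 147 genes followed through the settings, some of them not named here, 128 were called. The fits without switching genes and without mitochondrial genes hold no value for the genes they leave out. None of the 128 changed sign in those of the 14 settings that held the gene. In every setting that held the gene 59 kept their call. At least 1 leave-one-out fit lost the call of 67, and the fit of all 36 libraries that of 19. Among uncalled genes, mt-Co1 changed sign to 0.029 without WT replicate 3 (range -0.098 to 0.029), and Ttr to -0.00031 without GRLKO replicate 1 and -0.024 without GRLKO replicate 3 (range -0.024 to 0.17). A gene under 3 counts per library could not be told from 0 at this depth.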

Other observations

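Single mice at ZT20 on caloric restriction showed the mitochondrial pattern in part, in values that were not tested. mt-Nd3 stood at 874, 1140 and 924 CPM in the 3 WT livers and at 782, 209 and 188 CPM in the 3 GRLKO livers. GRLKO replicates 2 and 3 lay in the range seen at ZT16, and replicate 1 did not. mt-Atp6 stood at 11322, 13682 and 11599 CPM in WT and at 10666, 5359 and 4218 CPM in GRLKO, with the same livers low. mt-Co1 stood at 34132, 40221 and 36022 CPM in WT and at 32240, 42279 and 35895 CPM in GRLKO, and the groups overlapped.

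Fkbp5 in WT livers on caloric restriction averaged 349 ± 38.0 CPM (SD, n = 3) at ZT12 and 75.3 ± 11.8 CPM at ZT16. In GRLKO livers it averaged 49.1 ± 8.38 CPM and 24.2 ± 4.23 CPM at these times.

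Fubp1 read 27, 33.6 and 35 CPM in WT and 16.4, 14.3 and 15.2 CPM in GRLKO at ZT16 on caloric restriction, with all GRLKO livers lower (log2 fold change -1.06 ± 0.12, adjusted p = 0.00416). Ppp1cb, a catalytic subunit of a protein phosphatase, read 91.4, 98.9 and 98.4 CPM in WT and 55.4, 57.2 and 50.4 CPM in GRLKO, again with all GRLKO livers lower (log2 fold change -0.83 ± 0.086, adjusted p = 0.00307). Cycs, cytochrome c, read 79.4, 77.4 and 90.8 CPM in WT and 55.9, 51.8 and 56.1 CPM in GRLKO, where the groups did not overlap (log2 fold change -0.60 ± 0.09, adjusted p = 0.0125). Its call was just lost without GRLKO replicate 3 (adjusted p = 0.0505). Tfrc, the transferrin receptor, read 67, 92.4 and 115 CPM in WT and 185, 170.5 and 220.4 CPM in GRLKO, with all GRLKO livers higher (log2 fold change 1.07 ± 0.19, adjusted p = 0.0247). It was called in 2 of the 6 leave-one-out fits, with an adjusted p up to 0.0944 without GRLKO replicate 3.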
